A study of Mus musculus with 2 samples.

Results

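Lipid droplet proteins and the fatty acid uptake receptor were described through 10 genes, Plin2, Plin4, Plin5, Cidea, Cideb, Cidec, G0s2, Mogat1, Cd36 and Pnpla2, chosen by name from the 32285 genes listed in the count matrices. All 10 had UMIs (unique molecular identifiers, each standing for 1 captured transcript) in both libraries. The 2 droplet-based scRNA-Seq libraries were made from livers of WT mice and of mice that lack miR-33 in hepatocytes (HKO, deleted by a Cre recombinase under the albumin promoter, which is active in hepatocytes). The labels give the HKO genotype as AlbCRE and the study's methods the floxed allele miR-33 loxP/loxP. Male littermates started the CD-HFD, a high-fat diet deficient in choline, at 8 weeks of age and stayed on it for 6 months, which served as a model of metabolic dysfunction-associated steatohepatitis (MASH). Each library pooled 3 livers, and its hepatocytes and sorted non-parenchymal cells were mixed in equal numbers. With 1 library per genotype, a difference between WT and HKO has no replicate check, so no test was made and every interval given here is a 95% interval that covers counting error only. No row of the matrices stands for miR-33, and the counts therefore give no check of its deletion. Its host gene Srebf2 was at 24.8 UMIs per 1000000 UMIs (CPM) in WT and 19.1 CPM in HKO hepatocyte-like barcodes.

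Hepatocytes store fatty acids as triglyceride in lipid droplets, and choline deficiency limits the export of that triglyceride as lipoprotein. The perilipins coat the droplet surface: Plin2 is the general coat protein of hepatocyte droplets, Plin4 coats nascent droplets and is abundant in fat, and Plin5 couples droplets to mitochondria in oxidative tissues. Cidea and Cidec transfer lipid between touching droplets and so enlarge them, and both are best known from adipocytes, whereas Cideb is the family member of normal liver and takes part in VLDL lipidation. Pnpla2 encodes adipose triglyceride lipase (ATGL), which starts the breakdown of stored triglyceride, and G0s2 is its inhibitor. Mogat1 acylates monoacylglycerol on the way to triglyceride, and Cd36 takes up fatty acids at the plasma membrane. Plin2, Cidec, Cd36 and several others are well-known targets of the PPAR family of nuclear receptors.

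The miR-33 sequence was set against the 3′ UTRs of the members, since the deletion removes this microRNA. The mature strand (RefSeq, GRCm38.p6, chr15:82198127-82198147) is shown with its seed, bases 2 to 8, in capitals.
mmu-miR-33-5p: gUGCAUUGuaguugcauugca
Of the 10 members, Cd36 alone held a match to the seed in its longest annotated 3′ UTR, and it was a 7mer-A1 match (AATGCAA) at base 1109 of 1660 (GRCm38, GENCODE M21, chr5:17782235-17782241, minus strand). It is shown with its flanks and with the match in capitals.
Cd36 3′ UTR site: tgctatgtcttAATGCAAttgaacacag
Of all 20869 genes with an annotated 3′ UTR, 3130 held a match of the kinds CAATGCAA, CAATGCA or AATGCAA, and 1490 (7.14%) held 1 of the first 2, which also pair with base 8 of the microRNA.

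The promoters of the members were searched for the letters AGGTCA on both strands (TGACCT on the other), the core letters that PPAR response elements repeat. RefSeq windows from 250 bases before to 50 bases after each start were at hand for 9 members in 11 windows (none for Cidea), and 4 of the 11 held the hexamer, against 16.3% of 32851 windows of all genes. All 4 stretches, of Plin2, Plin5 (from overlapping windows) and Cd36, are shown with the hexamer in capitals. Plin4, Cideb, Cidec, G0s2, Mogat1 and Pnpla2 had none in their windows. A match is a string of letters and not a binding site.
Plin2 (window chr4:86670010-86670309, minus strand): tttcaggaccccTGACCTaagtcagacagc
Plin5 (window chr17:56117249-56117548, minus strand): gcatgagccctgAGGTCAgcgtccctgtca
Plin5 (window chr17:56117499-56117798, minus strand): agtcctagtctgAGGTCAgccatggtgact
Cd36 (window chr5:17835847-17836146, minus strand): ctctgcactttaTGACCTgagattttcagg

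The WT matrix held 30078 barcodes and 130451427 UMIs and the HKO matrix 20000 barcodes and 52563185 UMIs. After filtering, 22601 and 15583 barcodes remained, most of them shallow (commonest depth 2570 and 813 UMIs) and without markers of any other cell class. The lowest depth in the matrix was 500 UMIs in WT and 770 in HKO, just under the commonest HKO depth, and how the barcodes were chosen is not given in the sources used here. Those at over 2 times the commonest depth of their library were called hepatocyte-like, which gave 1832 WT and 3514 HKO barcodes with median depths of 20538 and 4222 UMIs. All 6 hepatocyte markers were detected in them, but also in every other class, so this does not set them apart. The remaining ones, 19976 and 10068, are called shallow barcodes, since free RNA from broken cells and small or damaged hepatocytes cannot be told apart there. Transcripts of hepatocytes were found in every class, T and NK-like barcodes included (Alb at 16814 CPM in WT and 8924 in HKO, against 36398 and 27540 in hepatocyte-like barcodes). Of 6 adipocyte markers, the defining Adipoq (1 and 0 UMIs), Plin1 (5 and 3) and Lep (none) were at or near 0 in hepatocyte-like barcodes. Of the others, Retn had 13 and 1 UMIs, Cfd 212 and 25 (4.48 and 1.01 CPM) and Adrb3 381 and 138 (8.05 and 5.55 CPM), so that the summed level was 12.9 CPM in WT and 6.72 CPM in HKO, and their part in the results was not tested. Of the marker lists of other cell classes, those of cholangiocytes (97.8 CPM in WT and 58.9 CPM in HKO, with 2 of 6 markers at 0 in each) and endothelial cells (15.8 and 11.8 CPM, none of 8 at 0) were also lower in HKO, and that of B and plasma cells was higher (6.65 and 9.94 CPM), and their part was not tested either. Cfd was also among the genes that marked the deep cluster of mostly WT barcodes described further on. Barcodes shared between the 2 libraries were not analysed here.

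In hepatocyte-like barcodes, 6 of the 9 members that reached a mean of 10 CPM were lower in HKO and 3 were higher, with no member past 1.5-fold in either direction. Of the 7066 genes at that level, 2.42% were at least 1.5-fold higher in HKO and 4.37% at least 1.5-fold lower. The counting interval of the ratio lay below 1 for 5 members (34.8% of all genes) and above 1 for 2 members (28.9% of all genes). The median log2 ratio of the 9 members was -0.27, beside -0.02 for all 7066 genes. This gap nearly closed under some alternatives: the members' median was -0.08 (all genes -0.04) without a deep cluster that was nearly all WT, -0.10 (all genes -0.06) with every barcode weighted equally, and -0.05 (all genes 0.01) at 10000 to 20000 UMIs per barcode.

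**Figure D1:**
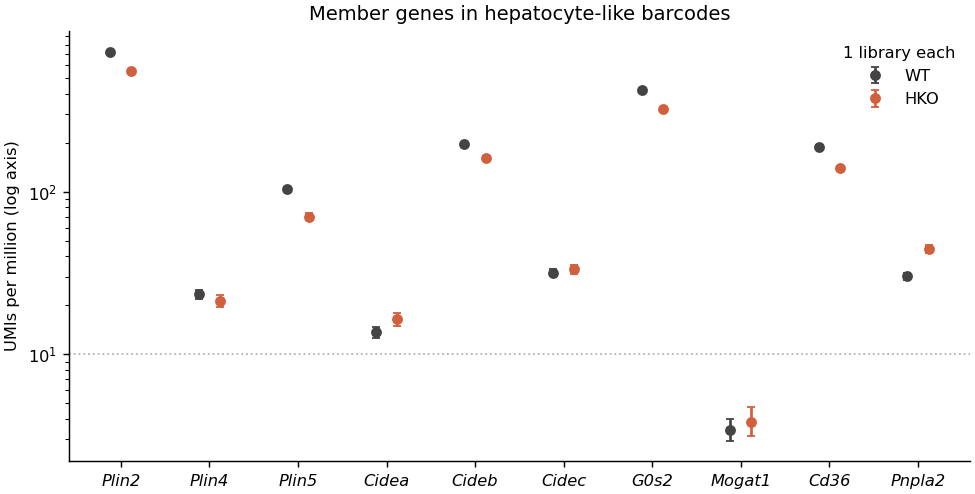
Level of each member in hepatocyte-like barcodes, in CPM on a log axis, with WT in grey and HKO in orange (1 library each) and bars for the 95% counting interval. Plin2, Plin5, Cideb, G0s2 and Cd36 sit lower in HKO and Pnpla2 sits higher, and Mogat1 lies under the dotted line at 10.

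Among the coat proteins, Plin2 (ENSMUSG00000028494, GRCm38 chr4:86648386-86670060) was at 725 CPM (717 to 732) in WT and 551 CPM (542 to 560) in HKO, from 34316 and 13698 UMIs. Its HKO over WT ratio was 0.760 (0.745 to 0.776), and it stayed below 1 under all 23 processing alternatives (0.667 to 0.947). Plin5 (ENSMUSG00000011305, chr17:56111601-56117596) was at 104 CPM (101 to 107) in WT and 70.1 CPM (66.8 to 73.5) in HKO. Its ratio of 0.675 (0.638 to 0.713) was the lowest of the members, close to the 1.5-fold limit, and ranged from 0.560 to 0.806 over the alternatives. Plin4 (ENSMUSG00000002831, chr17:56100591-56109803), which lies 1798 bases from Plin5, was at 23.3 CPM (22.0 to 24.8) and 21.2 CPM (19.4 to 23.1). Its ratio of 0.909 had an interval (0.817 to 1.01) that holds 1, and the alternatives fell on both sides (0.417 to 1.67). The intervals of the 2 neighbouring perilipin genes do not overlap in these sums, but they do among barcodes of 20000 to 40000 UMIs (Plin4 0.537, Plin5 0.560), of 10000 to 20000 and of 40000 or more, and among those with 2 to 5, 5 to 10 or 10 to 20% mitochondrial UMIs.

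Among the droplet fusion proteins, Cideb (ENSMUSG00000022219, chr14:55754050-55758458) was at 194.7 CPM (191 to 199) in WT and 161 CPM (156 to 166) in HKO, which gave an HKO over WT ratio of 0.828 (0.797 to 0.859). Cidec (ENSMUSG00000030278, chr6:113424634-113435760) was at 31.7 CPM (30.2 to 33.4) and 33.2 CPM (31.0 to 35.5), a ratio of 1.05 (0.959 to 1.14). Cidea (ENSMUSG00000024526) was at 13.6 CPM (12.6 to 14.7) and 16.4 CPM (14.8 to 18.05), a ratio of 1.20 (1.06 to 1.36). In these sums Cideb was lower in HKO, Cidec did not differ beyond counting error, and Cidea was slightly higher. The Cideb ratio ran from 0.537 to 0.998 over the alternatives, and its interval held 1 at 20000 to 40000 and 40000 or more UMIs and at 5 to 10% and 10 to 20% mitochondrial UMIs. The Cidec ratio ran from 0.445 to 1.65 and passed counting error on both sides, at 1.65 (1.37 to 2.00) for barcodes of 10000 to 20000 UMIs and at 0.679 (0.544 to 0.844) for those with 5 to 10% mitochondrial UMIs. The Cidea ratio depended on which barcodes were summed (0.779 to 4.21 over the alternatives), and a single barcode held 6.67% of its WT UMIs and 5.65% of its HKO UMIs.

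Of the lipase and its inhibitor, Pnpla2 (ENSMUSG00000025509, chr7:141455198-141460743) was at 30.1 CPM (28.6 to 31.7) in WT and 44.3 CPM (41.7 to 47.0) in HKO. This ratio of 1.47 (1.36 to 1.59) was the highest of the members and stayed above 1 under all 23 alternatives (1.30 to 1.85). G0s2 (ENSMUSG00000009633, chr1:193272161-193273217) went the other way, at 421 CPM (415 to 427) in WT and 320 CPM (313 to 327) in HKO, which put its ratio at 0.761 (0.742 to 0.781). G0s2 was below 1 under 22 of the 23 alternatives, and came to 1.09 among barcodes with 2 to 5% mitochondrial UMIs. Its interval held 1 there (0.995 to 1.19), at 5 to 10% (0.884 to 1.02) and at 40000 or more UMIs (0.802 to 1.12). In the sums over all hepatocyte-like barcodes the ATGL transcript was thus higher and the transcript of its inhibitor lower in HKO.

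Cd36 (ENSMUSG00000002944, chr5:17781690-17888801), the fatty acid receptor, was at 189 CPM (185 to 193) in WT and 139 CPM (134 to 144) in HKO, and its ratio was 0.736 (0.707 to 0.766) that stayed below 1 under all 23 alternatives (0.444 to 0.967), although at 10000 to 20000 UMIs, where it was 0.967, the interval held 1 (0.894 to 1.05). Mogat1 (ENSMUSG00000012187, chr1:78510991-78538173) had 162 and 96 UMIs, at 3.42 CPM (2.91 to 3.99) and 3.86 CPM (3.13 to 4.72), and its ratio of 1.13 (0.868 to 1.46) showed no difference detectable at this depth in the sum over all barcodes. Over the alternatives it ran from 0.801 to 2.61, and it was 2.27 (1.21 to 4.49) at 10000 to 20000 UMIs, from 14 and 42 UMIs. Plin4, Cidea, Cideb, G0s2 and Mogat1 overlap a gene on the other strand, and the strand setting of the counting is not given in the sources used here.

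**Figure D2:**
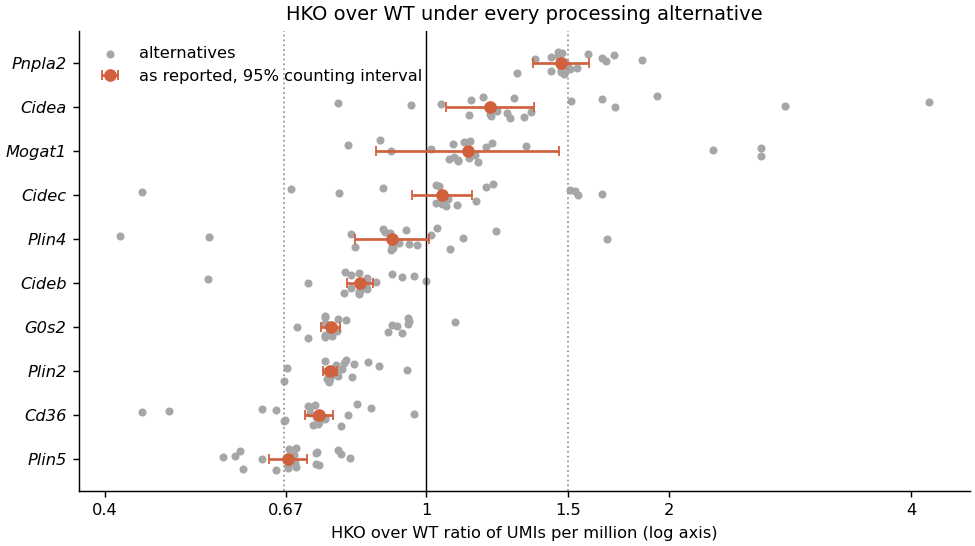
HKO over WT ratio of each member in hepatocyte-like barcodes on a log axis, as reported (orange, with its 95% counting interval) and under the 23 processing alternatives (grey). Plin2, Plin5, Cd36 and Cideb stay left of 1 and Pnpla2 stays right of 1 in every alternative, whereas Cidea, Cidec, Plin4 and Mogat1 fall on both sides.

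Barcode quality moved with these ratios. A cluster of deep barcodes with a median of 33877 UMIs and 1.10% mitochondrial UMIs held 271 WT and 8 HKO barcodes, and it was high in Plin2 (975 CPM) and G0s2 (704 CPM) in WT. Without it the ratio was 0.847 for Plin2, 0.949 for G0s2, 0.907 for Cideb, 0.777 for Plin5, 0.713 for Cd36 and 1.59 for Pnpla2. Cd36 and Pnpla2 thus differed between the libraries by at least as much without this cluster, whereas Plin2, Plin5, Cideb and G0s2 came nearer to 1. When every barcode weighed the same, the ratio was 0.934 for G0s2 and 0.808 for Plin2.

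The shallow barcodes showed the same direction for several members. Plin2 was at 951 CPM in WT and 590 CPM in HKO there, Plin5 at 137 and 75.5 CPM, Cd36 at 189 and 132 CPM, and G0s2 at 473 and 373 CPM. Pnpla2 differed less there than in hepatocyte-like barcodes, at 36.0 and 39.9 CPM. The part that free RNA has in the hepatocyte values was not tested.

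The share of hepatocyte-like barcodes with a UMI was compared after each barcode was thinned to 1500 UMIs, because the WT barcodes were deeper. Plin2 was then seen in 63.4% (61.2 to 65.6) of WT barcodes and 53.4% (51.8 to 55.1) of HKO ones, and G0s2 in 41.2% (38.9 to 43.5) and 37.9% (36.3 to 39.5). Cd36 was seen in 22.1% (20.2 to 24.0) and 15.8% (14.6 to 17.0), Cideb in 25.6% (23.6 to 27.7) and 21.1% (19.7 to 22.4), and Plin5 in 14.1% (12.6 to 15.8) and 10.7% (9.70 to 11.8). Pnpla2 had the larger share in HKO with intervals that do not overlap, 4.53% (3.62 to 5.59) against 6.83% (6.02 to 7.71). The shares of G0s2 above and those of Plin4 (3.11 and 2.85%), Cidec (4.04 and 4.35%), Cidea (1.58 and 1.99%) and Mogat1 (0.218 and 0.569%) had overlapping intervals in the 2 libraries. Thinned to 5000 UMIs, which left out 1949 HKO barcodes, G0s2 was seen in 76.7% (74.7 to 78.7) of WT and 66.4% (64.0 to 68.7) of HKO barcodes. The intervals of Plin4, Cidec, Cidea and Mogat1 still overlapped at that depth. With all UMIs counted, Plin2 was seen in 99.5% of WT barcodes and 83.0% of HKO ones, and Cd36 in 77.1 and 38.2%, values that carry the difference in depth.

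The share of the abundant members was also high in other barcodes. Thinned to 750 UMIs, Plin2 was seen in 39.1% of WT and 32.9% of HKO hepatocyte-like barcodes, in 50.8 and 35.1% of shallow barcodes and in 29.9% (22.9 to 37.7) and 16.1% (13.3 to 19.2) of T and NK-like barcodes. Cideb, which lymphocytes should lack, was seen in 12.3 and 11.3% of hepatocyte-like, 14.7 and 11.5% of shallow and 6.37% (3.10 to 11.4) and 4.19% (2.75 to 6.07) of T and NK-like barcodes. Cd36 was seen in 12.5 and 8.37% of hepatocyte-like barcodes, 12.9 and 9.68% of shallow ones and 6.37 and 3.38% of T and NK-like ones. At the same depth G0s2 was seen in 23.9 and 22.1% of hepatocyte-like barcodes, below its share in shallow ones (29.7 and 23.3%) and above that in T and NK-like ones, by little in WT (19.1%, 13.3 to 26.1) and by more in HKO (10.47%, 8.17 to 13.1). The median depths before thinning were 20538 and 4222 UMIs for hepatocyte-like, 2566 and 900 for shallow, and 5726 and 2194 for T and NK-like barcodes. Cidec was seen in 1.69 and 2.05% of hepatocyte-like barcodes and in 1.81 and 1.77% of shallow ones, and Pnpla2 in 2.07 and 2.68% against 2.59 and 2.87%. Since shallow barcodes may be free RNA or small hepatocytes, the shares of positive barcodes are not read as fractions of expressing cells, and the part of background in their difference between WT and HKO was not tested.

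The zone of each hepatocyte-like barcode was scored from 14 pericentral and 13 periportal genes, none of them a member, and each library was cut into 3 equal parts, called the periportal, middle and pericentral zone here. The zones are ranges of 1 score, and 20.0% of WT and 20.2% of HKO barcodes lay within 0.1 SD of a cut. Glul, the glutamine synthetase of the cells next to the central vein, was at 26.5, 85.3 and 415 CPM from the periportal to the pericentral zone in WT and at 19.1, 87.4 and 1233 CPM in HKO. The median depth of the zones was 21309, 18299 and 21429 UMIs in WT, and 7996, 2996 and 3705 UMIs in HKO. The median mitochondrial share was lowest in the middle zone, at 13.6, 7.42 and 12.3% in WT and 12.1, 5.37 and 10.4% in HKO.

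Cidea, Cidec, Plin4 and Cd36 were at least 1.5-fold higher in the pericentral than in the periportal zone in both libraries, 4 of the 9 members, and none was 1.5-fold lower. Of all genes at the same level, 5.73% of 7119 in WT and 7.15% of 7019 in HKO were at least 1.5-fold higher in the pericentral zone, and 4.93 and 2.98% at least 1.5-fold lower. The median log2 ratio of the members was 0.36 in WT and 0.49 in HKO, beside 0.00 and 0.09 for all genes. Genes entered this comparison at a mean of 10 CPM over the 2 outer zones. Cidea and Cidec in both libraries and Plin4 in HKO were under 10 CPM in the periportal zone, so they entered only through the zone where they are high, and the count and median of the members are a description that carries this selection. These are differences within a library, between barcodes of the same liver pool.

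Cidea had the steepest gradient of the members. It was at 1.67 CPM (1.09 to 2.45) in the periportal, 7.88 CPM (6.56 to 9.40) in the middle and 30.9 CPM (28.2 to 33.7) in the pericentral zone of WT, and at 1.14 CPM (0.608 to 1.95), 4.42 CPM (2.89 to 6.47) and 48.5 CPM (43.6 to 53.7) in HKO. The pericentral level was 18.5-fold (12.5 to 28.6) above the periportal in WT and 42.4-fold (24.5 to 80.4) in HKO. The size of the ratio rests on 26 and 13 periportal UMIs and ranged from 10.4 to 46.1 in WT and from 21.4 to 75.5 in HKO over 7 alternatives.

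Cidec was at 8.28 CPM (6.91 to 9.84), 22.9 CPM (20.6 to 25.4) and 63.2 CPM (59.4 to 67.2) across the zones of WT, and at 9.32 CPM (7.63 to 11.3), 26.2 CPM (22.2 to 30.6) and 74.4 CPM (68.4 to 80.8) across those of HKO. Its pericentral over periportal ratio was 7.64 (6.35 to 9.24) in WT and 7.99 (6.48 to 9.92) in HKO, with overlapping intervals. Plin4 was at 11.2, 19.1 and 39.3 CPM in WT and 8.70, 20.1 and 40.8 CPM in HKO, with pericentral over periportal ratios of 3.52 (2.97 to 4.18) and 4.69 (3.73 to 5.94). Both genes were thus higher toward the pericentral end in both libraries. The Cidec ratio ranged from 4.84 to 9.78 in WT and from 6.58 to 11.5 in HKO over the 7 alternatives, with the lowest values for a score from barcodes thinned to 1500 UMIs, and the Plin4 ratio from 3.07 to 4.67 and from 4.38 to 6.31. Within the pericentral zone alone, Cidec was 1.18-fold (1.06 to 1.31) higher in HKO and Plin4 1.04-fold (0.904 to 1.19).

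Cd36 was at 116, 166 and 282 CPM in WT and 92.8, 115 and 227 CPM in HKO, with a ratio of 2.44 (2.31 to 2.57) in WT and 2.44 (2.26 to 2.64) in HKO. Cd36 was thus lower in HKO in every zone (HKO over WT 0.802, 0.692 and 0.803). The ratio of the middle zone (0.635 to 0.754) lay below the interval of the pericentral zone (0.760 to 0.849), and the slopes were not tested against each other. Mogat1 was at 1.86, 2.35 and 5.99 CPM in WT and 2.73, 2.89 and 6.32 CPM in HKO, and its ratios were 3.22 (2.10 to 5.05) and 2.32 (1.45 to 3.77) under the CPM limit.

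The remaining members were less than 1.5-fold different between the outer zones as reported. The pericentral over periportal ratio was 1.28 and 1.41 for Plin2, 1.21 and 1.29 for Plin5, 1.20 and 1.10 for G0s2, 1.18 and 1.14 for Pnpla2, and 1.12 and 0.975 for Cideb in WT and HKO. The Plin2 ratio ranged from 1.20 to 1.29 in WT and from 1.35 to 1.55 in HKO over the 7 alternatives, and passed 1.5-fold in HKO among barcodes of at least 5000 UMIs. Plin2 was at 444, 533, 583, 628 and 659 CPM from the periportal to the pericentral of 5 equal parts of the score in HKO, against 616, 616, 785, 825 and 762 CPM in WT. In WT, Plin2, Plin5, G0s2 and Cideb were highest in part 3 or 4 of these 5, with G0s2 at 364, 334, 522, 503 and 364 CPM from the periportal to the pericentral part, whereas in HKO G0s2 lay between 297 and 365 CPM in all 5. The part of the lower mitochondrial share of the middle zone in these levels was not tested. The HKO over WT ratio of Plin2 was 0.769, 0.740 and 0.843 from the periportal to the pericentral zone, that of Plin5 0.712, 0.5998 and 0.756, and that of Pnpla2 1.65, 1.19 and 1.60, so each kept its direction in every zone.

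**Figure D3:**
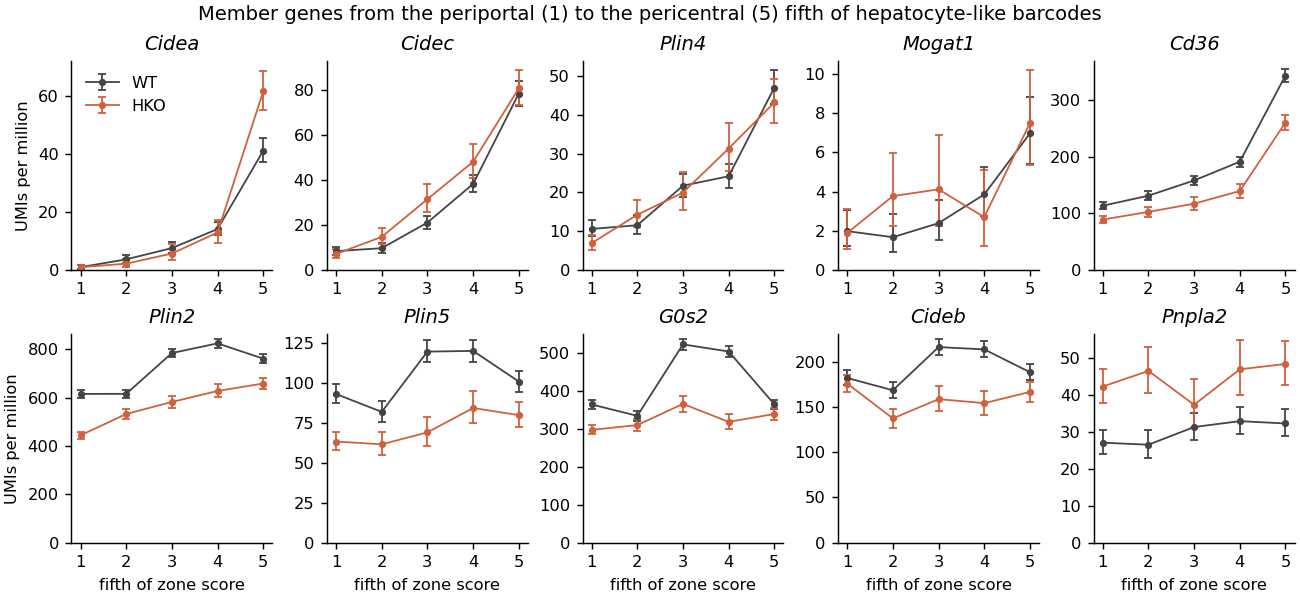
Level of each member (CPM, axes from 0) across 5 equal parts of the zone score, from periportal (1) to pericentral (5), in WT (grey) and HKO (orange), with 95% counting intervals. Cidea, Cidec, Plin4 and Cd36 climb toward the pericentral end in both libraries, and Mogat1 is highest there with wide intervals. Plin2 rises from part to part in HKO and is highest in part 4 in WT. Plin5, G0s2, Cideb and Pnpla2 are less than 1.5-fold apart between the outer zones.

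A small cluster led by Oat, Rhbg, Slc1a2 and Glul, 14 WT and 84 HKO barcodes that all lay in the pericentral zone, separated the zonated members. Against the rest of that zone, Cd36 was higher in the Glul-rich cluster, at 445 against 278 CPM in WT (1.60-fold, 1.35 to 1.88) and 411 against 204 CPM in HKO (2.02-fold, 1.79 to 2.27). Cidea was also higher, at 52.0 against 30.4 CPM (1.71-fold, 1.00 to 2.73) and 76.0 against 45.0 CPM (1.69-fold, 1.27 to 2.22). Cidec was lower there, at 28.9 against 64.0 CPM in WT (0.451, 0.216 to 0.833) and 28.5 against 80.1 CPM in HKO (0.356, 0.226 to 0.535), and Plin4 was at 23.1 against 39.6 CPM (0.583, 0.2504 to 1.16) and 27.3 against 42.5 CPM (0.643, 0.401 to 0.984). Within the pericentral zone, Cidea and Cd36 were thus higher in the Glul-rich barcodes and Cidec higher outside them, in both libraries. The WT values rest on 18 UMIs of Cidea and 10 of Cidec, the clustering used all variable genes, and no test was made.

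Members also differed in another cluster. It was rich in Malat1, a nuclear long noncoding RNA, and held 134 WT and 166 HKO barcodes, with Malat1 at 36357 and 47183 CPM against 3855 and 2920 CPM in the other hepatocyte-like barcodes. Glul was at 0.482 and 0.473 of the level elsewhere, and the zones of these barcodes were not counted. Plin4 was 2.98-fold (2.55 to 3.48) higher in it in WT and 3.86-fold (3.08 to 4.80) in HKO, and Cidec 1.72-fold (1.46 to 2.02) and 2.14-fold (1.72 to 2.65). Plin2 was 1.26-fold (1.21 to 1.31) and 1.57-fold (1.47 to 1.66) higher. Cidea went the other way from Cidec and Plin4, at 0.170 (0.0729 to 0.336) and 0.359 (0.163 to 0.689) of the level elsewhere, from 8 and 9 UMIs. Cideb was at 0.395 (0.348 to 0.447) and 0.308 (0.242 to 0.386) of the level elsewhere, Plin5 at 0.457 (0.388 to 0.535) and 0.326 (0.226 to 0.455), Pnpla2 at 0.542 (0.406 to 0.710) and 0.430 (0.287 to 0.621), and G0s2 at 0.496 (0.460 to 0.535) and 0.685 (0.612 to 0.765). The zone ratio of Plin4 was 4.67 in WT and 4.38 in HKO without this cluster.

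**Figure D4:**
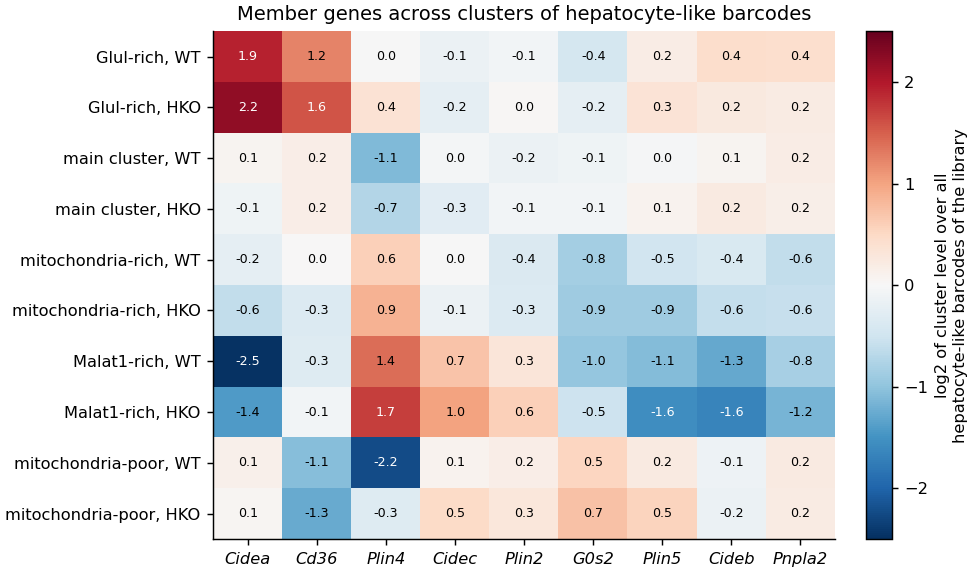
Level of 9 members in 5 clusters of hepatocyte-like barcodes, as the log2 of the level over that of all hepatocyte-like barcodes of the same library (numbers in the cells, red higher, blue lower). The Glul-rich rows are highest for Cidea (1.93 in WT and 2.21 in HKO) and Cd36, the Malat1-rich rows for Plin4 (1.39 and 1.72) and Cidec, and Cideb is lowest in the Malat1-rich rows.

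The level of several members went with the mitochondrial share of a barcode, which rises when cytoplasmic RNA is lost. Plin2 was at 952, 785, 763, 629 and 516 CPM in WT barcodes with under 2, 2 to 5, 5 to 10, 10 to 20 and 20 to 50% mitochondrial UMIs, and at 735, 686, 590, 512 and 408 CPM in HKO. G0s2 was at 624, 407, 364, 369 and 252 CPM in WT and 467, 443, 346, 294 and 196 CPM in HKO. The median mitochondrial share of hepatocyte-like barcodes was 11.9% in WT and 9.80% in HKO. Within every one of these ranges Plin2, Plin5 and Cd36 were lower and Pnpla2 was higher in HKO, with ratios of 0.773 to 0.874 for Plin2, 0.588 to 0.785 for Plin5, 0.480 to 0.855 for Cd36 and 1.37 to 1.71 for Pnpla2.

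In each class the UMIs of a member were set against those that shallow barcodes of the same library would bring with the class's Alb. This is called the free RNA estimate, although shallow barcodes may also be small or damaged hepatocytes. Hepatocyte-like barcodes were not above shallow ones throughout: in CPM, Plin2, Plin5 and G0s2 were lower in them in both libraries. Across the other classes, Cd36 was above the estimate in several, and Plin2, Pnpla2 and G0s2 were so in some. Barcodes with endothelial and stellate markers (95 WT and 197 HKO) had Cd36 at 1031 CPM in WT and 854 CPM in HKO, 9.88 times (9.17 to 10.6) and 16.7 times (15.5 to 18.01) the free RNA estimate. They came from 2 clusters, of 64 WT and 130 HKO and of 31 WT and 67 HKO barcodes, and their Cd36 is not split between these here. Endothelial-like barcodes (131 and 190) had it at 256 and 245 CPM (1.37 and 1.96 times). That class joined 2 clusters, and the smaller (31 WT and 27 HKO barcodes, median 16197 UMIs) was led by Tspan8, Ankrd1 and Lama5 with no endothelial marker among its 10 leading genes. Alb in the class (34266 and 28790 CPM) was also near its level in hepatocyte-like barcodes, so its Cd36 is not assigned to endothelial cells here. Macrophage-like barcodes (83 and 138) had Cd36 at 312 and 165 CPM (1.86 and 1.83 times). In T and NK-like barcodes (158 and 621) Cd36 was at 98.8 and 45.6 CPM, 1.08 times (0.876 to 1.32) and 1.18 times (0.916 to 1.49) the estimate, with intervals that hold 1.

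The highest multiples of Cd36 were in the 2 mixed classes that carried endothelial, macrophage and stellate markers together. That which also had monocyte and dendritic markers (31 WT and 145 HKO barcodes) was at 838 and 750 CPM, 24.4 and 65.1 times the estimate, and the other (22 and 81 barcodes) at 597 and 504 CPM, 16.6 and 55.7 times. Alb, which scales the estimate, was at 6316 and 2657 CPM in the former and 6614 and 2087 CPM in the latter. In CPM, Cd36 was lower in both classes than in the barcodes with endothelial and stellate markers. Whether these mixed barcodes hold 1 cell or several was not tested. In both classes, Plin2 and Pnpla2 were above the estimate as well, Plin2 at 3.01 and 8.25 times and Pnpla2 at 8.29 and 17.5 times in the former. Plin2 was also above it in barcodes with macrophage, monocyte and dendritic markers, at 1.54 times (1.30 to 1.81) in the 34 WT and 3.28 times (2.78 to 3.85) in the 89 HKO barcodes.

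Cideb stayed near the free RNA estimate, at 0.918 and 1.07 times in T and NK-like, 0.806 and 1.07 times in endothelial-like and 1.04 and 0.955 times in endothelial and stellate barcodes. Plin5 was at 0.779 and 0.774 times in T and NK-like barcodes and at 0.739 (0.526 to 1.01) and 1.60 times (1.13 to 2.20) in endothelial and stellate ones. In macrophage-like barcodes Plin4 was above the estimate in WT (2.47 times, 1.18 to 4.54, from 10 UMIs) and not in HKO (0.647 times, from 2 UMIs), and Cidec was above it in HKO (3.52 times, 2.05 to 5.64, from 17 UMIs) and not in WT (0.961 times, from 7 UMIs). These counts are too few to place Plin4 or Cidec in macrophages. G0s2 was at 2.25 and 4.51 times in the barcodes with endothelial, macrophage and stellate markers, and at 4.05 times (3.02 to 5.33) in 34 HKO neutrophil-like barcodes against 0.791 times (0.318 to 1.63) in the 6 WT ones. Counted as they stand, 6 members in WT and 5 in HKO had their highest level in hepatocyte-like barcodes among the 5 classes with at least 50 barcodes in both libraries. With the free RNA estimate taken off the other classes alone it was 9 and 8, and such a subtraction can only raise the counts. The share of all genes is not given here, so neither pair of counts is read as a result about the members.

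**Figure D5:**
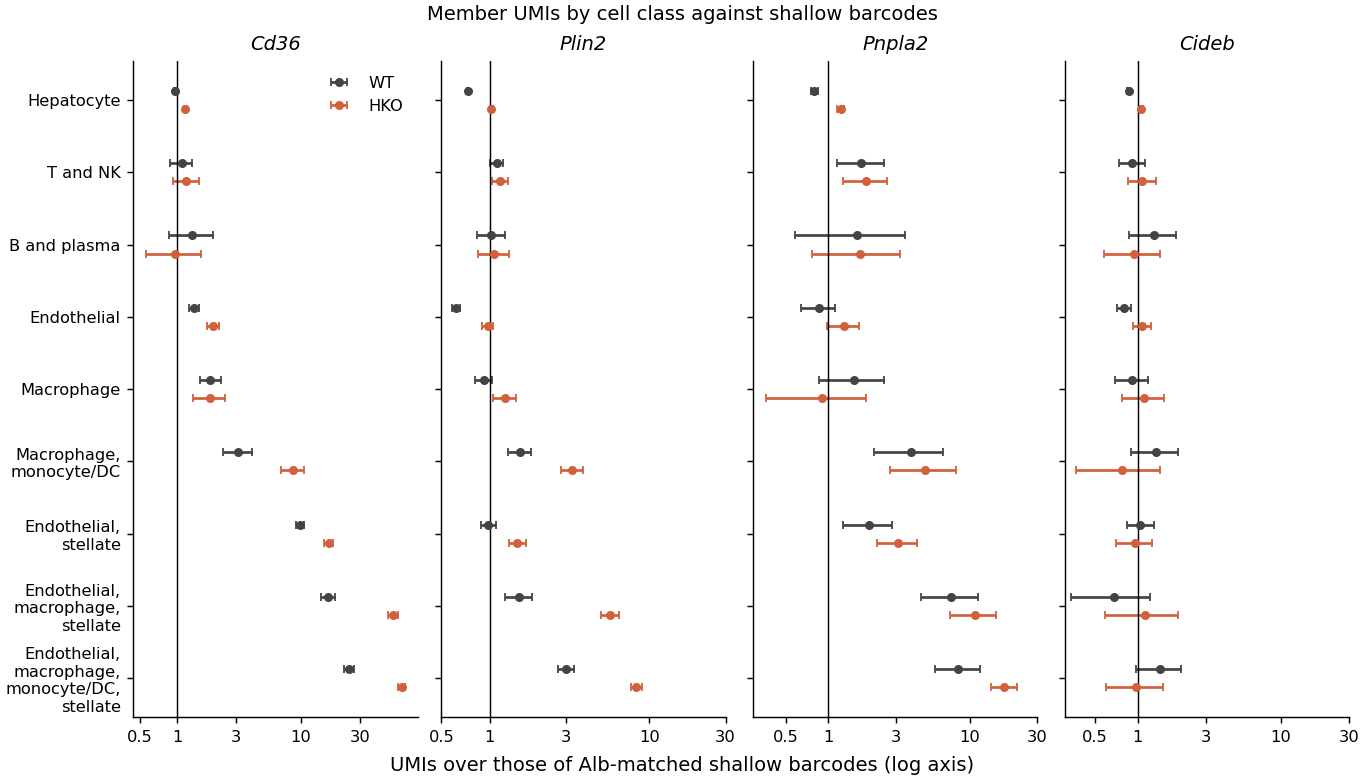
UMIs of Cd36, Plin2, Pnpla2 and Cideb in 9 cell classes over the UMIs that shallow barcodes with the same Alb would bring (log axis, each panel with its own range), for WT (grey) and HKO (orange) with 95% counting intervals. Cd36 reaches 24.4 and 65.1 in the mixed class at the bottom, Plin2 and Pnpla2 rise above 1 in the lower classes, and Cideb stays near 1 throughout.

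The spread of the members among hepatocytes was described over barcodes of at least 5000 UMIs thinned to 5000 (1832 in WT and 1565 in HKO), where equal cells would give a variance equal to the mean. The variance over the mean was highest for G0s2 in WT (1.80, and 1.93 in HKO) and for Cidea in HKO (2.30, and 1.30 in WT). Plin2 was at 1.57 and 1.96, Cd36 at 1.62 and 1.71, Cidec at 1.61 and 1.85 and Plin4 at 1.36 and 1.51, while Pnpla2 (1.03 and 1.03), Mogat1 (1.05 and 1.07) and Plin5 (1.09 and 1.07) were near 1. The 10% of barcodes with the most UMIs of a gene held 40.0 and 44.6% of the Cd36 UMIs and 23.6 and 28.0% of the Plin2 UMIs.

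Across these barcodes the members were weakly related to each other. Of the 45 pairs, the highest Pearson correlations of log counts were 0.188 in WT for Cidec with Mogat1 (0.061 in HKO) and 0.222 in HKO for Plin2 with Cidec (0.141 in WT), and Pnpla2 with its inhibitor G0s2 came to 0.049 and 0.070. The genes most like a member were named where the correlation reached 0.2 in both libraries among 6644 genes. For G0s2 this was Fabp1, the liver fatty acid binding protein (0.352 and 0.343), then Apoc1 and Chchd10, and for Cd36 Cyp3a11 (0.344 and 0.391), Cyp2e1 and Aldh3a2. Plin2 was nearest to Acaa1b, a peroxisomal thiolase (0.265 and 0.279), with Cyb5a and Ftl1, and Cideb to Serpina1b, Serpina1a and Ttr. Plin4 and Cidec shared Tox as their nearest gene (0.277 and 0.308 for Plin4, 0.249 and 0.267 for Cidec), followed by Airn and Esrrg for Plin4 and by Aldh3a2 and Tenm3 for Cidec. All points of a library share 1 library and 1 depth, and the counts are sparse, so these values describe the barcodes and carry no test.

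Other genes of lipid droplets and fatty acid handling gave the members their setting. Of a list of 40 such genes, 30 reached 10 CPM in hepatocyte-like barcodes, and the interval of the HKO over WT ratio lay below 1 for 20 and above 1 for 6 (34.8 and 28.9% of all genes), with a median log2 ratio of -0.17 (-0.02 over all genes). Past 1.5-fold were Lpin1, the phosphatidate phosphatase (179 to 82.0 CPM, ratio 0.459), Acsl3 and Acsl5, which activate fatty acids (0.474 and 0.593), and the carboxylesterase Ces1g (0.654) on the lower side, and Fitm1, which partitions triglyceride into droplets, on the higher side (71.8 to 113 CPM, ratio 1.58). Of the 4 fatty acid transport proteins listed, the 3 that reached 10 CPM were below 1 like Cd36, Slc27a2 at 0.757, Slc27a4 at 0.710 and Slc27a5 at 0.695. Slc27a1, under that level, went the other way, at 4.27 and 6.52 CPM (1.53, 1.23 to 1.89). Fitm1 and Fitm2 were at least 1.5-fold higher in the pericentral zone in both libraries, and Hsd17b13, a liver droplet protein, was lower there, at 0.580 (0.564 to 0.597) in WT and 0.401 (0.381 to 0.422) in HKO. Srebf2, Ppard, Fitm2, Hsd17b13 and the 4 transport proteins were named outside the fixed rule, after their values were seen.

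Of 14 regulators of these genes, 13 reached 10 CPM, with the interval below 1 for 10 and above 1 for 2 (34.8 and 28.9% of all genes). The 2 above 1 were Ppara and Pparg. Ppara was at 327 CPM in WT and 482 CPM in HKO (1.47, 1.44 to 1.51) and Pparg at 12.7 and 16.0 CPM (1.26, 1.11 to 1.43). Ppard, the remaining PPAR and the regulator under 10 CPM, went the other way, at 8.11 and 6.64 CPM (0.819, 0.678 to 0.985). Pparg was also at least 1.5-fold higher in the pericentral zone in both libraries. Srebf1, the regulator of fatty acid synthesis, was the single regulator past 1.5-fold, at 155 CPM in WT and 31.8 CPM in HKO (0.206, 0.191 to 0.221).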

How the data were processed

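Cells of WT and HKO livers were captured with the 10x Genomics 3′ kit and processed with Cell Ranger against mm10 (per the labels and the file headers, Cell Ranger 7.1.0), and the authors deposited raw UMI counts per gene and barcode, unnormalized. Whether intronic reads were counted is not given in the sources used here. The members, gene lists and tests were chosen with earlier results of these data known. Barcodes with at least 500 UMIs, 300 genes and at most 50% mitochondrial UMIs were kept. Scrublet (scanpy 1.11.5) marked 0 doublets, so the top-scoring 7019 WT and 2664 HKO barcodes were left out. Counts were scaled to 10000 and logged, and 2000 variable genes, 30 components and 15 neighbours entered Leiden clustering at resolution 1.0 (igraph 0.11.9). A cluster was named from at least 3 markers, and a second name was added where its list reached 40% of the first (set after the clusters were seen). Hepatocyte-like barcodes had at least 5141 (WT) or 1626 (HKO) UMIs. Summed counts were given as CPM with exact Poisson intervals, ratios with exact conditional intervals and shares with Clopper-Pearson intervals (scipy 1.17.1), which cover counting error only, without any test between genotypes. Scripts were tested on simulated data. Named were all members, Pparg, Ppara, list genes past 1.5-fold at a mean of 10 CPM, and the 3 most correlated genes per member at 0.2 or more. Alternatives changed depth minimum, doublets, mitochondrial limit, weighting, thinning, scaling, resolution, CPM minimum and zone score.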

Additional observations from a re-analysis of the deposited data

Results flagged for a closer look

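Cidea differed in direction between hepatocyte zones. Its HKO over WT ratio was 0.561 (0.352 to 0.861) in the middle zone and 1.57 (1.37 to 1.80) in the pericentral zone, so that it was lower in HKO in 1 zone and higher in the other, and the difference between the zones was not tested. The middle values rest on 124 WT and 26 HKO UMIs. The HKO pericentral zone also held more of the Glul-rich cluster (84 barcodes against 14 in WT) and 1233 CPM of Glul against 415 CPM, and the part of this in the Cidea values was not tested.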

How the results depend on the processing

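Of 230 ratios of single members under the 23 alternatives, 137 stayed within the counting interval of the reported ratio, 90 moved outside it, and 3 changed sides of 1 although the interval of the reported ratio did not hold 1: Cidea came to 0.957 at 20000 to 40000 UMIs and 0.779 at under 2% mitochondrial UMIs, and G0s2 to 1.09 at 2 to 5%. Cidec, Mogat1 and Plin4, whose reported intervals hold 1, also crossed 1. Of 140 zone ratios, that of G0s2 in WT came to 0.954 at 2 to 20% mitochondrial UMIs, and that of Cideb in HKO, whose reported interval holds 1, to 1.04 with a score from 4 genes. No member was past 1.5-fold as reported. At least 1.5-fold lower was 1 member with 5000 UMIs in both libraries, with no depth minimum, with equal weights, at 5000 to 10000 UMIs and at 2 to 5, 5 to 10 and 20 to 50% mitochondrial UMIs, 2 members at 20000 to 40000 UMIs and at under 2%, and 4 members at 40000 or more UMIs, where HKO had 6 barcodes and the median log2 ratio was -0.57. At least 1.5-fold higher was 1 member with equal weights, thinned to 1500 or to 5000 UMIs, without the WT-rich deep cluster, at 20000 to 40000 and 40000 or more UMIs and at under 2, 5 to 10 and 20 to 50%, 2 members at 5000 to 10000 and 10000 to 20000 UMIs, and 3 at 2 to 5%. Neither the share of all genes past 1.5-fold under each alternative nor the all-gene median at 40000 or more UMIs is given here. These counts are thus not read as a result about the members. The bins hold fewer UMIs, and other causes were not tested. The mitochondrial bins, the fits without clusters, thinning to 5000 UMIs for the ratios, the zone ratios at 2 to 20% and the subtraction of shallow-barcode RNA were added after seeing the data. With all UMIs the median difference in the share of positive barcodes was -19.2 percentage points, as depth then differs. Members highest in HKO hepatocytes numbered 8 with Alb-scaled hepatocyte or shallow-barcode RNA subtracted from the other classes alone, which can only raise the count. The median variance over mean in WT was 1.94 at 10000 UMIs, which also leaves out shallower barcodes, and the cause was not tested. No paired analysis was possible because each genotype has 1 library. Depth limits Mogat1, Cidea, Cidec and Plin4, which have few UMIs.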
